A study of Mus musculus with 11 samples.

Results

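The genes described here are the nuclear-encoded subunits of respiratory complexes II, III and V, together with cytochrome c and the ATP synthase inhibitor. They were taken by gene symbol, 30 of the 15113 genes in the count table, and each matched 1 Ensembl identifier: 4 genes of complex II, 9 of complex III, Cycs, and 16 of complex V including Atpif1. All 30 passed the filter on low counts. RNA had been taken from C2C12 cells, a mouse myoblast line that fuses into myotubes, differentiated and labelled as early-stage myotubes at passages 2 to 5. The control group (shRandom, n = 6) expressed a hairpin with a random target and the other group (shDRP1, n = 5) a hairpin against Drp1, the GTPase that constricts and divides mitochondria, whose gene is Dnm1l. Libraries were QuantSeq, in which each transcript is read as a tag near its poly(A) tail. Nothing in the labels says that the libraries of a group came from separate cultures, and p-values therefore refer to variation among libraries that may be technical only.

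Complex II, succinate dehydrogenase, oxidises succinate in the citric acid cycle and passes the electrons to ubiquinone in the inner membrane. Complex III takes them from ubiquinol to cytochrome c, the small haem protein that carries them on to complex IV, and pumps protons as it does so. Complex V, the ATP synthase, lets protons back through a rotating ring of c subunits and makes ATP in its catalytic head. All of complex II is encoded in the nucleus, whereas complexes III and V also contain subunits encoded by mitochondrial DNA.

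Total counts ran from 12277622 to 23082617 per library. Dnm1l was at 78.6 ± 8.63 CPM (SD, n = 6) in shRandom and 18.7 ± 2.58 CPM (SD, n = 5) in shDRP1 libraries, where CPM is the count scaled to a common library size. Myotube markers went against the label of myotubes in the shDRP1 libraries. All 11 myotube markers examined, among them Myog, Acta1 and Tnnc1, were lower there in edgeR, and their summed level was 11650 to 13030 CPM in shRandom and 83.4 to 114 CPM in shDRP1 libraries. None of the 11 was at 0 in the shDRP1 group. The summed level of 3 myoblast markers was also lower, at 121 to 175 CPM in shRandom and 10.5 to 25.3 CPM in shDRP1 libraries: Myod1 and Pax7 fell to 1.90% and 0.345% of control, while Myf5 rose from 6.05 ± 2.57 CPM (SD, n = 6) to a mean of 13.6 ± 5.36 CPM (SD, n = 5). The summed level of 3 smooth muscle markers, Acta2, Cnn1 and Tagln, was 2610 to 3152 CPM in shRandom and 8130 to 9907 CPM in shDRP1 libraries. Most of that sum was Acta2, with means of 2687 and 7975 CPM. A further marker, Myh11, was not among the genes counted, nor was the fibroblast marker Thy1. The summed level of 4 fibroblast markers was 4937 to 5255 CPM in shRandom and 8033 to 11390 CPM in shDRP1 libraries. Of these 4 fibroblast markers, Col1a1, Col3a1 and Dcn rose and Pdgfra did not pass (log2 fold change -0.10, adjusted p = 0.60, edgeR). These markers moved with the hairpin, and their part in the results below was not tested. In RNA from a whole culture, fewer cells of a type and less RNA per cell cannot be told apart.

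Transcription of respiratory genes is known to be driven in mammals by factors that include NRF1, GABP (also called NRF-2), the oestrogen-related receptors, YY1 and CREB. RefSeq promoter windows, from 250 bases before to 50 after the start on GRCm38.p6, were found for 24 of the 30 genes, not for Sdhc, Uqcrc2, Cyc1, Uqcrb, Uqcrq and Atp5a1. The palindromic NRF1 motif was in the windows of 3 of 24 genes (12.5%), Uqcrc1, Atp5g2 and Atp5k, and in 1.07% of 27025 genes with a window. Those of GABP (CCGGAAGT or ACTTCCGG) were in Uqcrh, Uqcr11 and Atp5h, 12.5% against 4.31% of all. Those of the oestrogen-related receptors (AAGGTCA or TGACCTT) were in 6 genes, Sdhd, Atp5e, Atp5g3, Atp5k, Atp5l and Atpif1, 25% against 5.38%. Those of YY1 (AAGATGGC or GCCATCTT) were in Atp5f1, Atp5j and Atp5j2, 12.5% against 3.19%, and the cyclic AMP element (TGACGTCA) was in Uqcrfs1 and Cycs, 8.33% against 2.03%. A gene with several windows counts when any of them matches, and a match is a description of the letters, not a site. No searched motif overlapped another in the windows printed here. The windows below, 5′ to 3′ on the strand of the gene with the motif in capitals, are from 3 genes that fell (Uqcrc1, Uqcr11, Cycs) and 1 whose level was close between the groups (Uqcrh). Uqcr11 and Uqcrh hold the same GABP letters on opposite strands, and of these Uqcr11 was called lower and Uqcrh was not called; their difference was not tested. For Atpif1, which rose, the window starts from a RefSeq start 1755 bases upstream of the GENCODE gene and is not shown.
Uqcrc1, chr9:108936398-108936697, plus strand, NRF1: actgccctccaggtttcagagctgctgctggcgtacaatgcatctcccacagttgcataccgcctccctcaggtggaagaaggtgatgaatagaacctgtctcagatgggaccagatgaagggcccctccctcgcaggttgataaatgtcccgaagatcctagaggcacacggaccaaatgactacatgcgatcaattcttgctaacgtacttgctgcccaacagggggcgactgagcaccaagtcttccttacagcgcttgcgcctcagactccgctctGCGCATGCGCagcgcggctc
Uqcr11, chr10:80406772-80407071, minus strand, GABP: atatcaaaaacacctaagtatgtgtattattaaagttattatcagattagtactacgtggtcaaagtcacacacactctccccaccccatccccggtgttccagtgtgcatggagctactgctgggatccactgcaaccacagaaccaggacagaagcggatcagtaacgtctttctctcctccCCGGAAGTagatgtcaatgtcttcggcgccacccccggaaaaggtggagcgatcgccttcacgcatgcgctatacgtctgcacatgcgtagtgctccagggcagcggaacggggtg
Uqcrh, chr4:116075021-116075320, minus strand, GABP: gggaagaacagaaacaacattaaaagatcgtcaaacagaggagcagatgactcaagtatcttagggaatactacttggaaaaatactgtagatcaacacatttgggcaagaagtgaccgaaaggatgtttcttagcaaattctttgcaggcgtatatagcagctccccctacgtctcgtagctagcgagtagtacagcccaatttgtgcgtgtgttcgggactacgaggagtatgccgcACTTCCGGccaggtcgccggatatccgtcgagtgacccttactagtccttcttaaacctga
Cycs, chr6:50566520-50566819, minus strand, cyclic AMP element: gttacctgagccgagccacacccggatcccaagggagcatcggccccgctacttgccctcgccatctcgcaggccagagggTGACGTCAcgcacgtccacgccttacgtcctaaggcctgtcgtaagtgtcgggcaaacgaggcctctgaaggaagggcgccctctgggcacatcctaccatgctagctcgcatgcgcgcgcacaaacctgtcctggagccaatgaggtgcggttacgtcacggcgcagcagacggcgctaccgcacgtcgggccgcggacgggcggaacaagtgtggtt

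The comparison of hairpins asks how the subunit transcripts differ between shDRP1 and shRandom libraries, which differ in the muscle markers above as well as in Dnm1l. Most were modestly lower in shDRP1 libraries: 19 of 30 fell, 2 rose (Atpif1 and Sdhc) and 9 stayed above an adjusted p of 0.05 (edgeR quasi-likelihood test over 13025 genes). In the same test 67.1% of all genes were called, 33.3% as lower and 33.9% as higher. Members were called lower in 63.3% of cases and higher in 6.67%. Their median log2 fold change was -0.24, against 0.03 for all genes tested. The changes were small: the genes that fell kept 52.1% to 90.4% of the control mean, and no member changed 2-fold, a size reached by 25% of all genes tested. In 12 of the 30 members every shDRP1 library lay below every shRandom library, as it did for 25.4% of all genes tested (48.9% did not overlap in either direction). Atpif1 was the only member with all shDRP1 libraries above. Relative to library totals alone, which move the median log2 fold change of all genes up by 0.10, 13 members fell and 2 rose, and under upper-quartile scaling 14 fell and 2 rose. The split of all genes then moved to 28.8% lower and 40.0% higher for library totals. For upper-quartile scaling it was 29.3% lower and 39.2% higher.

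**Figure D1:**
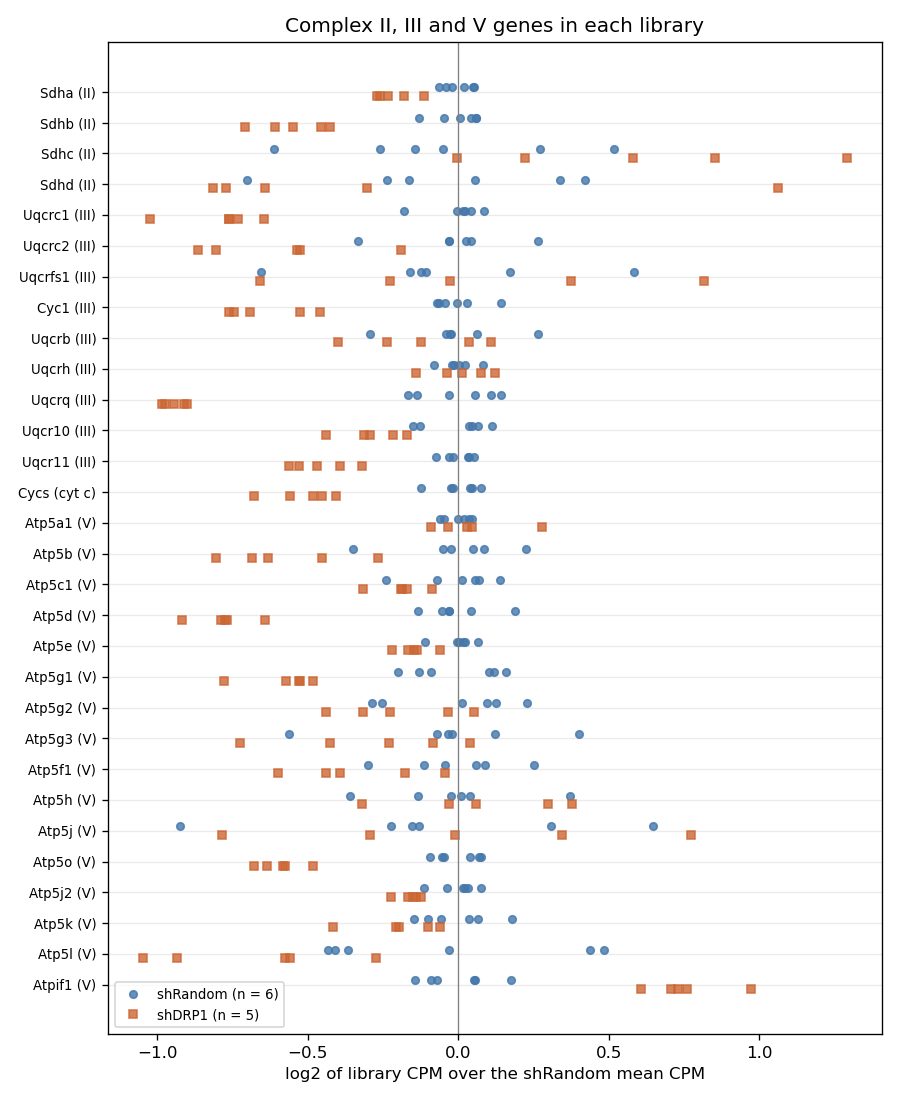
Level of each gene in every library, as log2 of its CPM over the mean CPM of the 6 shRandom libraries, with shRandom as circles and shDRP1 (n = 5) as squares. The squares of Uqcrq, Uqcrc1, Atp5d, Cyc1 and Atp5o lie wholly left of the circles and those of Atpif1 wholly right, while Sdhc, Uqcrfs1 and Atp5j spread widely in both groups.

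**Figure D2:**
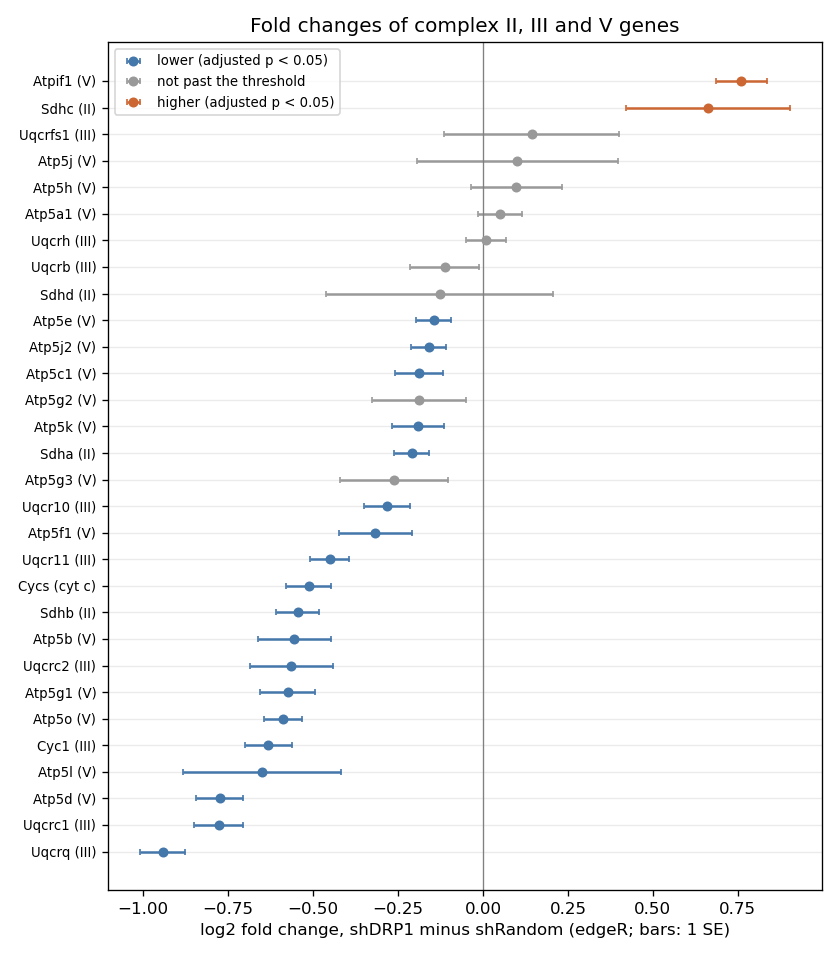
Log2 fold change of the 30 genes, shDRP1 minus shRandom, from edgeR with bars of 1 SE, ordered by size and coloured by call at an adjusted p of 0.05. Values run from -0.94 for Uqcrq to 0.76 for Atpif1.

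The subunits of complex II went in different directions. Sdhb, the iron-sulfur subunit that passes electrons from the flavin toward ubiquinone, had a lowest, median and highest value of 298, 332 and 340.4 CPM in shRandom libraries. In shDRP1 replicates 1 to 5 it was at 214, 200.0, 243, 238 and 223 CPM. Every shDRP1 library was below every control, and Sdhb fell to 68.5% of the control mean (log2 fold change -0.55, SE 0.06, adjusted p = 2.7e-06, edgeR). Sdha, the flavoprotein that oxidises succinate, was at 176, 184 and 191 CPM (lowest, median, highest) in shRandom and at 156, 152, 170.0, 162 and 154 CPM in shDRP1 libraries. Its groups did not overlap either, although the decrease was smaller, to 86.4% of control (-0.21, SE 0.05, adjusted p = 0.0022). Under library-total scaling Sdha did not pass (-0.11, adjusted p = 0.067).

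Sdhc, a membrane anchor of complex II (chromosome 1, 171127165 to 171150603, minus strand, GRCm38), went the other way. It was at 35.8, 51.2 and 78.3 CPM (lowest, median, highest) in shRandom and at 81.9, 134, 98.8, 63.9 and 54.6 CPM in shDRP1 libraries. The groups overlapped, since shDRP1 replicates 4 and 5 lay within the control range. Sdhc rose by 0.66 on the log2 scale (SE 0.24, adjusted p = 0.028), and the call was lost when shRandom replicate 2, 4 or 6 or shDRP1 replicate 2 or 3 was left out (adjusted p from 0.052 to 0.091). The other anchor, Sdhd, had a low level, with 3.77 ± 1.02 CPM (SD, n = 6) and 3.54 ± 2.45 CPM (SD, n = 5), and was not called (adjusted p = 0.75). A single library, shDRP1 replicate 2 at 7.89 CPM, stood above the other shDRP1 libraries, which ran from 2.15 to 3.06 CPM, and without it Sdhd was lower (log2 fold change -0.61, adjusted p = 0.021).

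Complex III fell in 6 of its 9 nuclear genes (66.7%, beside 33.3% of all genes tested), with none higher and a median of -0.45. Uqcrq, a small membrane subunit that sits next to cytochrome b (chromosome 11, 53427922 to 53430831, minus strand), had the largest decrease of the 30 genes. It was at 687, 779 and 852 CPM (lowest, median, highest) in shRandom and at 393, 390.5, 413, 410.3 and 401 CPM in shDRP1 libraries. The groups lay far apart, and Uqcrq fell by 0.94 on the log2 scale (SE 0.07, adjusted p = 1.0e-08), to 52.1% of control.

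The core proteins of complex III face the matrix and descend from a processing peptidase. Uqcrc1 was at 127, 146 and 153 CPM (lowest, median, highest) in shRandom and at 85.1, 71.0, 85.2, 86.9 and 92.3 CPM in shDRP1 libraries. It fell with no overlap of the groups, by 0.78 (SE 0.07, adjusted p = 2.1e-07). Uqcrc2 was at 114, 144 and 173 CPM in shRandom and at 99.5, 126, 100.1, 82.5 and 79.1 CPM in shDRP1 libraries. It fell by 0.56 (SE 0.12, adjusted p = 9.3e-04), but shDRP1 replicate 2 lay inside the control range.

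Cyc1 and Uqcrfs1 encode the electron-carrying subunits cytochrome c1 and the Rieske iron-sulfur protein. Cyc1 was at 106, 110.2 and 124 CPM (lowest, median, highest) in shRandom and at 77.8, 81.5, 66.1, 66.8 and 69.3 CPM in shDRP1 libraries. All shDRP1 libraries were below all controls, and Cyc1 fell by 0.63 (SE 0.07, adjusted p = 1.5e-06). Uqcrfs1 was at 40.1, 58.4 and 94.8 CPM in shRandom and at 62.0, 111, 82.0, 54.0 and 40.1 CPM in shDRP1 libraries. It spread over more than 2-fold within each group and did not pass (log2 fold change 0.14, SE 0.26, adjusted p = 0.64).

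Of the other small subunits of complex III, Uqcr11 and Uqcr10 fell without overlap, by 0.45 (SE 0.06, adjusted p = 6.0e-06) and 0.28 (SE 0.07, adjusted p = 0.0018). Uqcrh, the acidic hinge protein that helps bind cytochrome c1 to cytochrome c, was at 698 ± 26.3 CPM (SD, n = 6) and 703 ± 49.3 CPM (SD, n = 5). Its log2 fold change was 0.01 (SE 0.06, adjusted p = 0.90) and changed sign between scalings. Uqcrb, which binds near the ubiquinone site, was at 171 ± 21.3 and 158 ± 22.1 CPM and did not pass either (-0.11, SE 0.10, adjusted p = 0.35). Within the complex, then, the small subunits ran from the strongest decrease, in Uqcrq, to nearly equal levels, in Uqcrh. The difference between those genes was not tested.

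Cytochrome c is the mobile carrier between complexes III and IV and, when released from mitochondria, a trigger of apoptosis. Cycs (chromosome 6, 50562563 to 50566538, minus strand) was at 41.4, 45.4 and 47.5 CPM (lowest, median, highest) in shRandom and at 28.2, 32.3, 33.0, 30.7 and 34.0 CPM in shDRP1 libraries. The groups did not overlap, and Cycs fell by 0.51 (SE 0.07, adjusted p = 8.0e-06), to 70.1% of control. Its promoter window with the cyclic AMP element is printed above.

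Complex V fell in 10 of 16 genes (62.5%, beside 33.3% of all genes tested) and rose in 1, with a median of -0.19. Under library-total or upper-quartile scaling 5 of 16 fell, where 28.8% and 29.3% of all genes were lower. Without shRandom replicate 2, 6 of 16 fell, where 31.6% of all genes were lower. Its largest decrease was in Atp5d, the delta subunit of the central stalk (chromosome 10, 80138632 to 80145818, plus strand). Atp5d was at 361, 388 and 451 CPM (lowest, median, highest) in shRandom libraries. In shDRP1 replicates 1 to 5 it was at 233, 229, 209.6, 232 and 254 CPM. It fell by 0.78 (SE 0.07, adjusted p = 1.2e-07) with no overlap. Atp5o, the oligomycin-sensitivity protein that ties the peripheral stalk to the head, was at 522, 556 and 588 CPM in shRandom and at 359, 348, 399, 372 and 374 CPM in shDRP1 libraries. It also fell with the groups apart, by 0.59 (SE 0.06, adjusted p = 3.4e-07).

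The catalytic head alternates alpha and beta subunits, encoded by Atp5a1 and Atp5b, and these transcripts differed in their calls. Atp5b, which carries the catalytic sites, was at 593, 762 and 884 CPM (lowest, median, highest) in shRandom and at 488, 629, 552, 470.3 and 433 CPM in shDRP1 libraries. It fell by 0.56 (SE 0.11, adjusted p = 3.8e-04), with shDRP1 replicate 2 above the lowest control. Atp5a1 was at 398, 418 and 429 CPM in shRandom and at 424, 503, 429, 389.7 and 406 CPM in shDRP1 libraries. It did not pass (log2 fold change 0.05, SE 0.07, adjusted p = 0.50), and shDRP1 replicate 2 was its highest library. The difference between the 2 genes was not tested. Atp5c1, the gamma subunit that turns inside the head, and Atp5e, the epsilon subunit at its foot, fell slightly, to 87.8% and 90.4% of control, with overlapping groups (adjusted p = 0.028 and 0.023). Neither passed under library-total or upper-quartile scaling. The call of Atp5c1 was lost without shRandom replicate 2 or 6 or shDRP1 replicate 1 or 5, and that of Atp5e without shRandom replicate 2 or shDRP1 replicate 1.

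In the peripheral stalk, which holds the head still, Atp5f1 (subunit b) fell by 0.32 (SE 0.11, adjusted p = 0.018) with overlap, and not under library-total or upper-quartile scaling. Atp5h (subunit d) was at 227 ± 38.4 CPM (SD, n = 6) and 243 ± 45.2 CPM (SD, n = 5) and Atp5j (coupling factor F6) at 68.7 ± 24.5 and 73.7 ± 29.9 CPM, and neither passed (adjusted p = 0.53 and 0.78). So of the 4 stalk genes, Atp5o and Atp5f1 fell and the other 2 gave no call. The membrane subunits Atp5j2 (f) and Atp5k (e) fell to 89.5% and 87.6% of control (adjusted p = 0.012 and 0.038), again not under either of those scalings. The call of Atp5k was also lost without shRandom replicate 2, 4 or 6 or shDRP1 replicate 1, 2 or 3. For Atp5l (g), a level of 2.16 ± 0.657 CPM (SD, n = 6) and 1.38 ± 0.297 CPM (SD, n = 5) passed (adjusted p = 0.023), at a total of 360 tags over all 11 libraries. Its call was lost without shRandom replicate 2, shDRP1 replicate 3 or shDRP1 replicate 5 (adjusted p from 0.055 to 0.064).

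The c ring through which protons pass is built from the products of 3 genes, Atp5g1, Atp5g2 and Atp5g3, whose mature proteins are the same and whose import sequences differ. Atp5g1 was at 71.5, 82.7 and 91.6 CPM (lowest, median, highest) in shRandom and at 55.3, 58.8, 57.1, 57.0 and 48.0 CPM in shDRP1 libraries. It fell with no overlap, by 0.57 (SE 0.08, adjusted p = 1.8e-05). Atp5g3 was at 718, 1040.0 and 1399 CPM in shRandom and at 904, 1090.0, 1000.0, 788 and 642 CPM in shDRP1 libraries. The groups overlapped widely and it did not pass (-0.26, SE 0.16, adjusted p = 0.16), nor did Atp5g2 at 4.40 ± 0.626 and 3.88 ± 0.542 CPM (adjusted p = 0.24). Without shRandom replicate 4, Atp5g3 was lower (-0.35, adjusted p = 0.034). Atp5g3 gave 92.2% ± 1.44 (SD, n = 6) of the tags of the 3 genes in shRandom and 93.6% ± 0.882 (SD, n = 5) in shDRP1 libraries, and Atp5g1 7.35% ± 1.34 and 5.97% ± 0.806.

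Ratios of these genes within a library, which do not depend on scaling, were compared in 3 pairs with a two-sided exact permutation test over 462 splits, whose smallest p is 0.00433. The log2 ratio of Atp5g1 to Atp5g2 was 4.23 ± 0.22 (SD, n = 6) in shRandom and 3.84 ± 0.26 (SD, n = 5) in shDRP1 libraries (exact permutation p = 0.0303, adjusted over the 3 pairs 0.0909). That of Atp5g1 to Atp5g3 was -3.67 ± 0.28 and -3.98 ± 0.21 (exact permutation p = 0.0693, adjusted 0.104), and that of Atp5g2 to Atp5g3 -7.90 ± 0.42 and -7.82 ± 0.34 (p = 0.736, adjusted 0.736). All 3 ratios overlapped between the groups and none passed after adjustment, so a shift in the make-up of the c-subunit transcripts was not detectable with these libraries.

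Atpif1 encodes the inhibitor that binds the ATP synthase and stops it from running backwards and consuming ATP. It was the gene with the largest increase among the 30 (chromosome 4, 132530555 to 132533659, minus strand). Its level was 419, 460.5 and 522 CPM (lowest, median, highest) in shRandom and 756, 784, 909, 767 and 706 CPM in shDRP1 libraries. Every shDRP1 library was above every control, and Atpif1 rose by 0.76 (SE 0.08, adjusted p = 4.7e-07), to 169% of control. It kept its call under every scaling, filter, tool and left-out library tried. In the same libraries 10 of the other 15 genes of complex V fell, beside 33.3% of all genes tested. Under library-total or upper-quartile scaling 5 of 15 fell, beside 28.8% and 29.3% of all genes.

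Summed over genes, complex III took 0.248% ± 0.0127 (SD, n = 6) of all counts in shRandom and 0.202% ± 0.0102 (SD, n = 5) in shDRP1 libraries, and the groups did not overlap. The largest terms of that sum were Uqcrq and Uqcrh, with means of 771.6 and 698.5 CPM in shRandom libraries. In shDRP1 libraries Uqcrq was at 401.7 CPM and Uqcrh at 702.9 CPM, so the sum weighs Uqcrq heavily. Complex II took 0.0551% ± 0.00202 and 0.0491% ± 0.00416, and complex V with its inhibitor 0.569% ± 0.0504 and 0.541% ± 0.0502, both with overlap. The sum for complex V hid opposite movements, since Atpif1 is part of it.

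The members differed from each other in how steady they were within a group. The deviations of 9715 other genes from their group means were reduced to 1 shared axis, which held 60% of their within-group variance. On it shRandom replicate 1 and shDRP1 replicate 2 stood at the high end, at 0.48 and 0.48, and shRandom replicate 4 and shDRP1 replicate 5 at the low end, at -0.46 and -0.42. By construction its mean was the same in both groups. In 9 members the deviations followed it with a Pearson r of 0.957 to 0.994 over the 11 libraries, as a description: Sdhc, Uqcrc2, Uqcrfs1, Uqcrb, Atp5b, Atp5g3, Atp5f1, Atp5h and Atp5j. Among the other genes, 15.0% had an r of at least 0.9 in size. Uqcrq, Cycs and Atp5o hardly followed it, at 0.06, 0.02 and -0.01.

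These 9 genes had a median SE of 0.13 for the log2 fold change and the other 21 a median SE of 0.07. Of the 9, 3 fell, 1 rose and 5 did not pass, and in all 9 the groups overlapped. Of the other 21, 16 fell, 1 rose and 4 did not pass, and 13 had groups apart. Among all genes tested 67.1% were called and in 48.9% the groups did not overlap. Because the 9 were chosen by their variation within groups, their SE and overlap are not a separate result. What sets the libraries apart on this axis was not tested. With shRandom replicate 1 and shDRP1 replicate 2 both left out, 18 members fell and 2 rose. Of all genes, 33.8% were then lower and 33.2% higher. In that fit Sdhd was lower (-0.64, edgeR adjusted p = 0.020), and Atp5k and Atp5l were no longer called (adjusted p = 0.056 and 0.055).

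**Figure D3:**
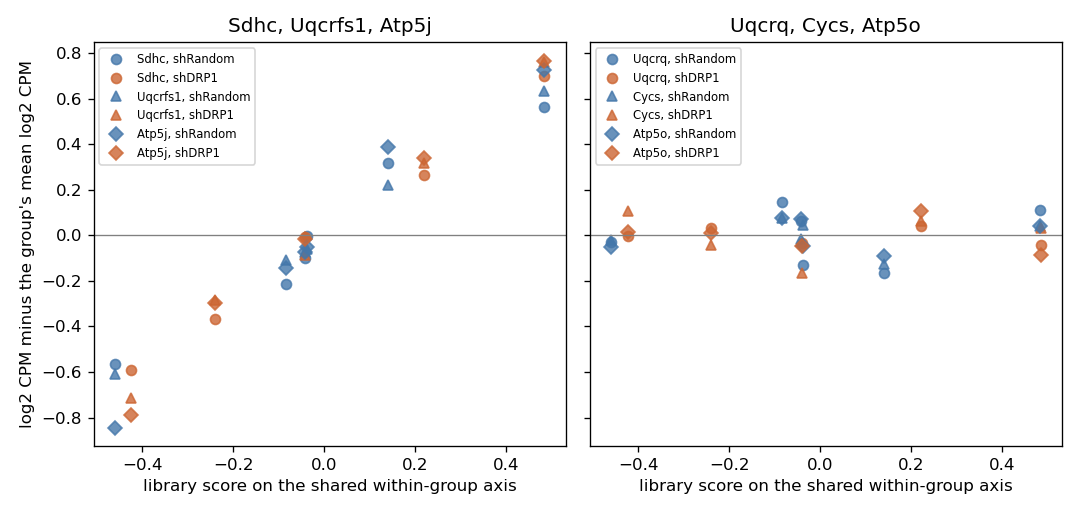
Log2 CPM minus the mean of its group, against the score of each of the 11 libraries on the shared within-group axis (no unit), for 3 genes that follow it (left) and 3 that do not (right). The left panel rises steeply in both groups, with r from 0.987 to 0.994, while the right panel is flat.

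The complexes also need assembly factors and a few subunits outside the 30 genes, and these went in both directions. Of 16 assembly factors, 4 fell, 5 rose and 7 did not pass, with a median of 0.12. The shares lower and higher were both below those of all genes tested (33.3% lower and 33.9% higher, with a median of 0.03). Among those of complex III, Uqcc1, which helps make cytochrome b, fell from a control mean of 53.1 ± 0.802 CPM (SD, n = 6) to a shDRP1 mean of 25.9 ± 0.862 CPM (SD, n = 5), and Lyrm7, which helps insert the Rieske protein, from 3.70 ± 1.05 to 1.74 ± 0.531 CPM (log2 fold changes -1.03 and -1.08, adjusted p = 3.4e-10 and 9.0e-04, edgeR). Hccs, which attaches haem to cytochromes c and c1, rose by 0.44 (SE 0.08, adjusted p = 1.4e-04). For complex V, Atpaf1, a chaperone of the beta subunit, fell by 0.53 (SE 0.15, adjusted p = 0.0055) and Fmc1, an assembly factor first known from yeast, rose by 0.63 (SE 0.06, adjusted p = 5.1e-07). Sdhaf4, which helps assemble the flavoprotein of complex II, rose by 0.67 (SE 0.20, adjusted p = 0.0091) with overlapping groups.

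Of the further subunits, Atp5mpl of complex V fell by 0.46 (SE 0.06, adjusted p = 8.9e-06). The mitochondrially encoded cytochrome b, mt-Cytb, was at 1350.0 ± 354 CPM in shRandom (SD, n = 6) and rose to 2416 ± 439 CPM in shDRP1 libraries (SD, n = 5), a log2 fold change of 0.84 (SE 0.17, adjusted p = 6.2e-04) with overlapping groups. Hence in complex III the mitochondrial transcript and 6 of 9 nuclear transcripts moved in opposite directions. Usmg5 did not pass, and mt-Atp6 and mt-Atp8 were not among the genes counted.

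The neighbouring complexes are given beside these as a description without a test. Complex I had 23 of 36 nuclear genes lower (63.9%) and 3 higher, with a median log2 fold change of -0.31. Complex IV had 8 of 14 lower (57.1%) and 1 higher, with a median of -0.29. For all genes tested the shares were 33.3% lower and 33.9% higher. Complex IV includes the muscle isoforms Cox6a2, Cox7a1 and Cox8b, its only genes changed 2-fold. Without them 5 of 11 genes were lower (45.5%, against 63.3% of the 30 genes and 33.3% of all genes tested). The median was then -0.21, beside -0.24 for complexes II, III and V, which have no such muscle genes on the list.

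**Figure D4:**
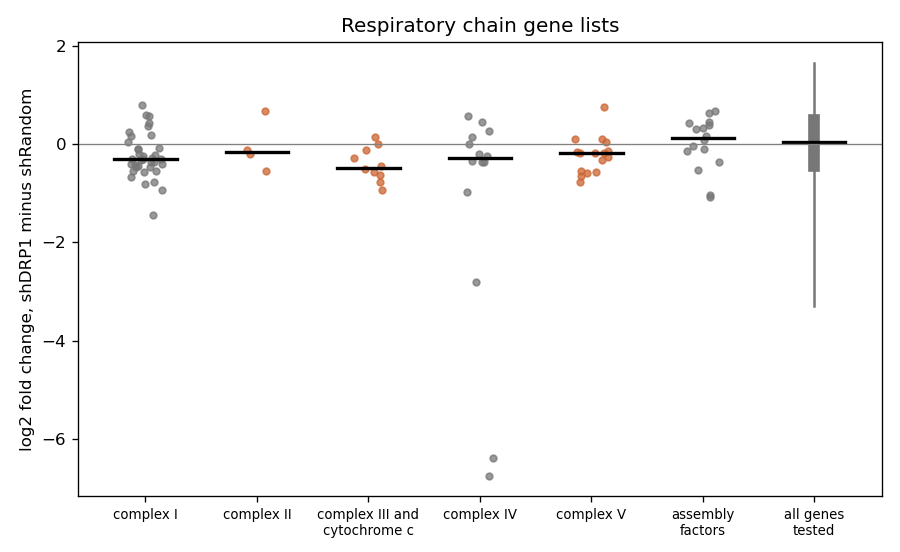
Log2 fold change, shDRP1 minus shRandom, of each gene in the nuclear respiratory lists (points, with complexes II, III and V in orange) and its median (black line). For all genes tested the thick bar spans the middle 50% and the thin bar the 5th to 95th percentile. The points of complexes II, III and V lie between -0.94 and 0.76, inside the thin bar.

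Counting can divide tags among near-identical genes. The last 300 bases of 12 of the 30 transcripts matched another annotated gene over at least 60 bases at 95% identity or more, and 18 matched none. Atp5l had the most, 12 genes, of which 3 were in the table with 230 tags in all, against 360 for Atp5l. The copy of Atp5g2 in the table had 43.9% of its tags, and in the other genes with such a copy in the table it was at most 3.95%. The levels of Atp5l and Atp5g2 are therefore uncertain. A further annotated gene of the same name overlaps the last exon of Atp5o on the same strand. Another gene on the opposite strand overlaps the last exon of Atp5o and of Uqcrc2, and the strand setting of the counting is not given in the sources used here. None of the 30 genes lies on chromosome 8.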

How the data were processed

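Per the labels' protocols, libraries of 11 samples were made with a QuantSeq 3' kit from total RNA; per the series text, reads were aligned in the BlueBee software. Builds GRCm38 and mm10 and the tool DESeq2 (version 1.22.2) appear in the submitters' processing notes. For the aligner, counter, strand setting and annotation, nothing is given in the sources used here. The authors deposited raw counts for 15113 genes, in whole numbers and not normalized. They also deposited a signal table in which every count of a library is divided by the same factor, as its values show; it served here for gene symbols only.

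Samples were grouped by the hairpin in their titles. Counts were tested with edgeR version 4.0.16 (R version 4.3.3): filterByExpr by group left 13025 genes, TMM scaled the libraries, and the robust quasi-likelihood fit had group as its only term, with Benjamini-Hochberg adjustment over all genes at 0.05. SE is the fold change over the root of its F statistic. CPM uses TMM-scaled library sizes. Simulated data with known changes were used to test these steps. Ratios were tested with scipy version 1.17.1. The within-group axis is the first component of log2(CPM + 0.5) minus the group mean, over genes with a mean of at least 5 CPM that are not among the 30. Positions are from GENCODE M21 (GRCm38), matched by identifier; promoters are from RefSeq (GRCm38.p6). Copies were sought with blastn version 2.17.0 in all GENCODE M21 transcripts, from the last 300 bases of 1 principal transcript of each of the 30 genes.

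The 30 genes, lists and tests were chosen with earlier results of these data known. The rule for named genes takes all 30, Dnm1l, and of the assembly factors and further subunits those past the threshold, at most 3 each way. Cox6a2, Cox7a1, Cox8b, the single markers given with values and genes without a call outside the 30 were chosen after their values were seen. Alternatives were other scalings (median-ratio, library totals, upper quartile), no filter and a stricter one (at least 1 CPM in 5 libraries), DESeq2 version 1.42.0, limma-voom (limma version 3.58.1), the replicate number as a block and leaving out each library. Leaving out shRandom replicate 1 and shDRP1 replicate 2 together was added after seeing the data. No 2 libraries of a group agreed within counting noise (chi-square over degrees of freedom from 5.30 to 61.6).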

Additional observations from a re-analysis of the deposited data

Results flagged for a closer look

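Single libraries that stood apart from the rest of their group were looked for among the CPM values of the 30 genes and the 3 c-subunit ratios. Chance gives such a library in about 1 in 20 groups, 66 groups were examined, and 3 were found. For Sdhd, shDRP1 replicate 2 was at 7.89 CPM and the other shDRP1 libraries at 2.15 to 3.06 CPM. For Uqcrc1, shRandom replicate 1 was at 127 CPM and the other shRandom libraries at 144 to 153 CPM. For the log2 ratio of Atp5g2 to Atp5g3, shDRP1 replicate 5 was at -7.22 and the other shDRP1 libraries at -8.05 to -7.90.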

How the results depend on the processing

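Of 600 fold changes of the 30 genes under 20 alternatives, 546 kept their direction and side of the threshold, and 16 genes did so under all of them. The count of members lower ran from 15 to 19, of members higher from 1 to 2 and of all genes called from 8243 to 8815 when each library was left out in turn. With the replicate number as a block over replicates 1 to 5, 15 members were lower and 1 higher, and Sdhc was no longer called (0.597, edgeR adjusted p = 0.056). Complex V then had 6 of 16 genes lower, beside 30.2% of all genes. There was no sign that the numbers pair the libraries. Same-numbered libraries correlated between -0.413 and 0.565 in their deviations from the group means, and no library correlated best with its own number. So few correlations cannot settle whether the libraries are paired. Library totals alone gave 13 lower and upper-quartile scaling 14, beside 28.8% and 29.3% of all genes. The 6 genes lost under library totals were Sdha, Atp5c1, Atp5e, Atp5f1, Atp5j2 and Atp5k, with adjusted p from 0.067 to 0.43.

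Direction turned only for values that had not passed. For Uqcrh it was -0.007 with median-ratio scaling and with DESeq2, -0.00027 with no filter, and from -0.019 to 0.036 over left-out libraries. Atp5a1 was at -0.014 without shRandom replicate 1 and shDRP1 replicate 2 together. Over left-out libraries Sdhd ran from -0.613 to 0.008, Uqcrfs1 from -0.094 to 0.29, Atp5a1 from -0.019 to 0.087 and Atp5j from -0.135 to 0.27. The log2 ratio of Atp5g2 to Atp5g3 differed between groups by -0.073 to 0.212 over left-out libraries. With the replicate block this ratio differed by 0.13 (exact sign-flip test, adjusted p = 0.625). The sign-flip test could not pass with so few pairs, whatever their values, and so decides nothing. No ratio passed under the other alternatives. Levels were low for Sdhd, Atp5g2 and Atp5l, each under 10 CPM.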

Other observations

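The base composition of transcript ends was set beside the signed correlation of each gene with the within-group axis. Across the 30 genes, the GC share of the last 300 bases and that correlation had a Spearman rho of -0.75 (n = 30 genes, which share the same 11 libraries), as a description across genes. Uqcrfs1, at 29.3% GC, followed the axis most closely, and Atp5k, at 52.3%, ran most against it with r = -0.89. Uqcrc1, at 59.7%, had r = -0.82, while Uqcr11, at 58.7%, had r = -0.30. Over 9467 other genes the same rho was -0.09. With the log2 fold change between hairpins, rho was -0.17 over the 30 genes and -0.11 over the others.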
